A study of Mus musculus with 6 samples.

Results

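The semaphorins, plexins, ephrins and Eph receptors form a group of guidance genes, and their expression was compared between the gastrocnemius muscle of young and aged mice. Members were taken by symbol, as semaphorins of classes 3 to 7, plexins A to D, the EphA and EphB receptors and the ephrins A and B. This rule was set with earlier results of these data known. The rule gave 52 genes on 68 of the 55681 probes of the array. They were 20 semaphorins, 9 plexins, 14 Eph receptors, 8 ephrins and the antisense RNA Plxna4os1, whose symbol also met the rule. For 41 of the 52 genes a probe exceeded background clearly on 3 or more of the 6 arrays, and these were tested among 20900 genes. Of these 20900, 13844 had a gene symbol, and the others were counted by their accession. Shares of all genes below are over both kinds. The study used male mice, 3 in the young group (13 weeks of age) and 3 in the aged group (26 months of age), and total RNA of the whole muscle was labelled with Cy3 and hybridized to a single-colour Agilent array, 1 array for each mouse. Per the study's methods the mice were C57BL/6J, and neither the methods nor the labels give a treatment or transgene for these 6 mice. Whole muscle holds fibres, nerve endings, vessels and connective tissue, and a lower signal from fewer cells of a type cannot be told apart from less RNA in each cell.

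Semaphorins are secreted or membrane-bound cues that steer axons, vessels and immune cells, and most of them signal through plexins. Most class 3 members do so with neuropilins as co-receptors. Ephrins are held at the cell surface and signal to Eph receptor tyrosine kinases on the neighbouring cell, while the ephrin itself can signal back into its own cell. In skeletal muscle these families are known for guiding motor axons to their targets, for the topographic order of innervation and for the nerve-muscle contact.

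No guidance gene passed an adjusted p of 0.05 (limma, Benjamini-Hochberg across the 20900 genes), and 0.254% of all genes did. At an unadjusted limma p under 0.05, 9 of the 41 genes tested were lower in aged mice and 1 was higher, where 8.36% and 6.07% of all genes were lower and higher. The lower genes were Sema6c and Sema7a among the semaphorins, Plxna1 and Plxnb3 among the plexins, Efna5 and Efnb2 among the ephrins, and Epha2, Epha4 and Ephb6 among the Eph receptors. The higher gene was Sema4d. In 7 members all aged mice lay below all young mice and in 1 member all lay above, where 13.9% and 7.92% of all genes had these positions. The median change of the 41 genes was -0.16 on the log2 scale (11 higher and 30 lower), and that of all genes was -0.06 (9018 higher and 11882 lower). With 3 mice against 3, an exact permutation test of a single gene cannot give a two-sided p below 0.1.

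**Figure D1:**
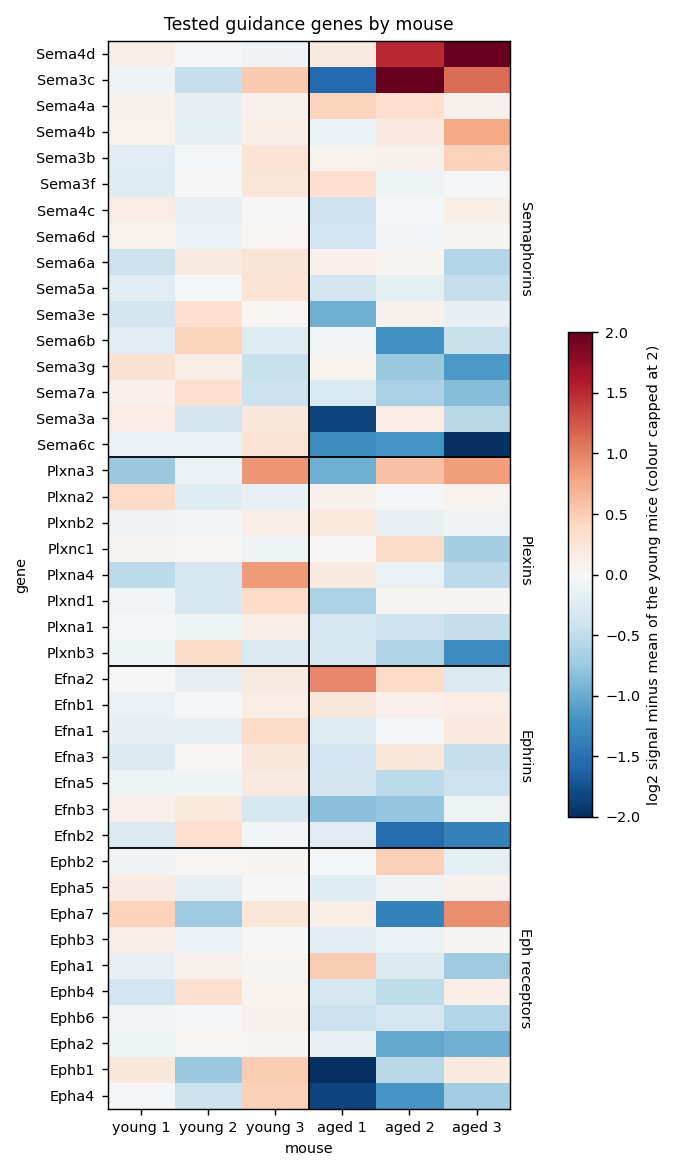
Log2 signal of each of the 41 tested guidance genes in each mouse minus the mean of the 3 young mice (colour, capped at 2), with genes in rows by family and mice in columns. Sema4d and Sema3c are red in aged mice 2 and 3, while Sema6c is blue in all 3 aged mice.

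For Sema4d, Efnb2 and Epha2, aged mouse 1 lay near the young mice and aged mice 2 and 3 did not. All 6 arrays were on 1 slide, where the young mice and aged mouse 1 were in row 1 and aged mice 2 and 3 were in row 2, so row and mouse cannot be told apart for these 2 mice. With the row as a block, the fit compares aged mouse 1 alone with the young mice, so each change rests on 1 aged mouse. The change was then 0.18 for Sema4d, -0.21 for Efnb2, -0.14 for Epha2 and -1.85 for Epha4. The share of probes above background ran from 48.7% to 53.8% per array.

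Sema6c showed the smallest p of all members. It encodes a class 6 semaphorin, a membrane-spanning cue that binds plexins of the A type. Values are log2 signals in which 0 is the 75th percentile of the array, and they are compared only within a gene. Sema6c was 5.61, 5.60 and 6.02 in young mice 1, 2 and 3 and 4.49, 4.55 and 3.72 in aged mice 1, 2 and 3. All aged mice were clearly below all young mice, and aged mouse 3 was the lowest. As multiples of the 75th percentile, the signal was 48.7, 48.6 and 64.7 in young mice and 22.4, 23.5 and 13.2 in aged mice. The change was -1.49 ± 0.27 (SE, n = 3 per group), a 0.356-fold level, with a 95% interval from -2.13 to -0.85 and a limma adjusted p of 0.106. A second Sema6c probe was also lower in each aged mouse than in each young mouse, with a mean difference of -1.30. With the slide row as a block, the change was -1.26.

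The 250 bases before both Sema6c start sites are shown because this member stood farthest from its replicate error. They are from RefSeq (GRCm38.p6, forward strand of chromosome 3), and capitals mark CANNTG, the E-box motif that the myogenic factors and other helix-loop-helix proteins recognise, searched on both strands, on which it reads alike.
Sema6c upstream start, chr3:95160170-95160419: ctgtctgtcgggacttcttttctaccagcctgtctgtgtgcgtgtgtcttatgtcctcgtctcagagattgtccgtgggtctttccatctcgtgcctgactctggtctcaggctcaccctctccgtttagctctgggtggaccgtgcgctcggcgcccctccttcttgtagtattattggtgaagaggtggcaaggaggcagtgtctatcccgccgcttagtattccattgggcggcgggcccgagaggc
Sema6c downstream start, chr3:95164089-95164338: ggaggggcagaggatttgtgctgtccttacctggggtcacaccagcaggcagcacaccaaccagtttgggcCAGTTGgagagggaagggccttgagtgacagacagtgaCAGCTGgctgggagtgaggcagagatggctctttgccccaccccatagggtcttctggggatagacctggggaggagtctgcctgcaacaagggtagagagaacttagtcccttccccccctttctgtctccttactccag
The window of the upstream start held 0 such motifs and that of the downstream start held 2, of which 1 was CAGCTG, a form that is itself covered by the general motif. The motif CANNTG was found in 66.2% of the 32851 promoter windows of this length and CAGCTG in 13% of them. Of the 59 windows of guidance genes (45 symbols matched), 49.2% held CANNTG and 15.3% held CAGCTG. These matches describe the letters of the windows only, and no binding was measured.

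Sema4d, a class 4 semaphorin of lymphocytes and other cells whose receptors include plexin B1, was the only guidance gene higher at a p under 0.05. Its log2 signal was -1.16, -1.31 and -1.35 in young mice 1, 2 and 3 and -1.10, 0.23 and 1.54 in aged mice 1, 2 and 3. The young mice lay close together, aged mouse 1 was barely above them, and aged mice 2 and 3 were far higher. On the linear scale the signal was 0.446, 0.404 and 0.391 times the 75th percentile in young mice and 0.468, 1.17 and 2.9 times in aged mice. The change was 1.50 ± 0.60 (SE, n = 3 per group; limma adjusted p = 0.329), and it was 0.18 with the slide row as a block and 0.84 without aged mouse 3. The gene of that receptor, Plxnb1, was not well above background on any array, while Plxnb2, a receptor of class 4 semaphorins, was so on all arrays. Of 8 lymphocyte markers, 4 were tested and none had a p under 0.05, their summed level was 2.84 to 3.3 times the 75th percentile in young and 2.49 to 3.2 times in aged mice, and Cd3g, Cd79a, Cd8a and Ms4a1 were not tested for low signal. Of 8 tested macrophage markers, 7 were higher and 4 of them had a p under 0.05, and their summed level was 23.8 to 25.6 in young and 28.1 to 34.4 in aged mice. Such sums follow the brightest genes of a list most, and Csf1r, the brightest of the macrophage markers, was the 1 that was lower (change -0.05). The part of either cell type in the Sema4d signal was not tested.

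Sema7a encodes a semaphorin anchored to the membrane by a lipid, which binds plexin C1 and integrins. Its log2 signal was 2.62, 2.85 and 2.09 in the young mice and 2.21, 1.87 and 1.66 in the aged mice. The groups overlapped, since young mouse 3 was below aged mouse 1. The change was -0.61 ± 0.25 (SE; limma adjusted p = 0.344), and it was -0.31 with the slide row as a block.

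The other 13 semaphorins tested had a p above 0.05. The 4 class 6 genes were all lower (Sema6a, Sema6b, Sema6c and Sema6d, median change -0.36), while of the 4 class 4 genes tested 3 were higher (Sema4a, Sema4b and Sema4d, median 0.28). The 6 class 3 genes tested, which are secreted, were 3 higher and 3 lower (median -0.14). Sema4c, whose probe gave a high signal and which acts on plexin B2, had a change of -0.11 with an interval from -0.58 to 0.36. Sema3a, the axon repellent known to be made at the nerve ending by Schwann cells, was dim, being above background in 2 young mice and 1 aged mouse. It was -2.89, -3.41 and -2.81 in young mice and -4.89, -2.89 and -3.59 in aged mice, so that the groups overlapped (change -0.75, interval from -1.92 to 0.41). The change was -1.85 with the slide row as a block, but -0.095 with normexp, another background correction. It was -0.20 without aged mouse 1 and -1.20, with an unadjusted limma p under 0.05, without aged mouse 2. Sema3c, a class 3 semaphorin of heart and vessel development, spread widely among aged mice, with -0.29 in aged mouse 1 but 3.58 and 2.38 in aged mice 2 and 3, against 1.20, 0.81 and 1.78 in young mice. Its other probe did not show this spread, with a change of -0.11 against 0.63 for the brighter probe.

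**Figure D2:**
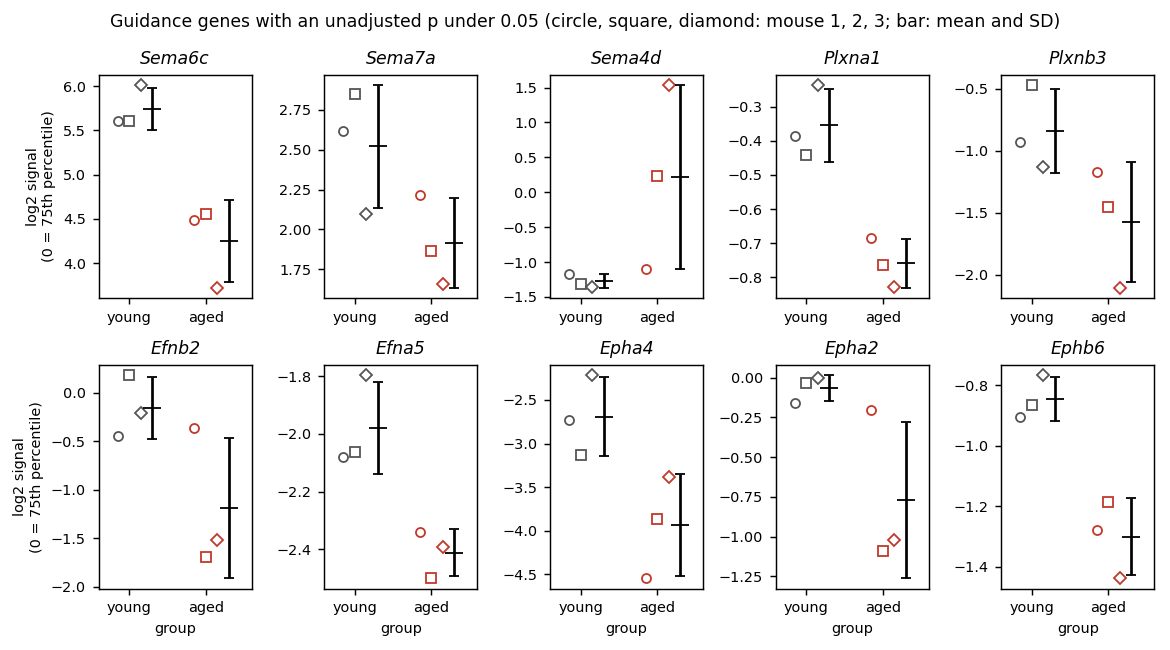
Log2 signal (0 is the 75th percentile of the array) of the 10 guidance genes with an unadjusted limma p under 0.05, in 3 young (grey) and 3 aged (red) mice, with circle, square and diamond for mouse 1, 2 and 3 and a bar for the mean and SD. The groups touch nowhere for Sema6c, Plxna1, Efna5 and Ephb6, while aged mouse 1 lies near the young mice for Sema4d, Efnb2 and Epha2.

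Plexins are the main receptors of the semaphorins, and 8 of the 9 genes were tested, with a median change of -0.13 (2 higher and 6 lower). Plxna1, a receptor shared by class 3 and class 6 semaphorins, was -0.39, -0.44 and -0.24 in young mice and -0.68, -0.76 and -0.83 in aged mice. The aged mice were all lower and the spread within each group was small. The change was -0.40 ± 0.15 (SE; limma adjusted p = 0.303), a 0.755-fold level, and it was -0.33 with the slide row as a block. Its unadjusted limma p was under 0.05 in 10 of the 17 alternative settings.

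Plxnb3, a plexin B receptor of oligodendrocytes and some neurons that binds Sema5a, was -0.93, -0.47 and -1.13 in young mice and -1.17, -1.45 and -2.11 in aged mice. Aged mouse 1 was just below young mouse 3, and the others were farther apart. The change was -0.73 ± 0.30 (SE; limma adjusted p = 0.332). It was -0.47 without aged mouse 3, -0.33 with the slide row as a block and -0.44 with normexp background correction, which adds an offset to every signal. Its ligand gene Sema5a had a change of -0.34, with an interval from -0.79 to 0.11.

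Plxnd1, the receptor of Sema3e in vessels, and Plxnb2, a receptor of class 4 semaphorins, gave strong signals on all arrays. Their changes were -0.17 (interval from -0.81 to 0.47) and -0.0037 (interval from -0.41 to 0.40). With 3 mice per group, changes of either sign within these intervals could not be told from no change. With the slide row as a block, Plxnd1 had a change of -0.61. Plxna2, Plxna3, Plxna4 and Plxnc1 also had intervals that included 0.

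**Figure D3:**
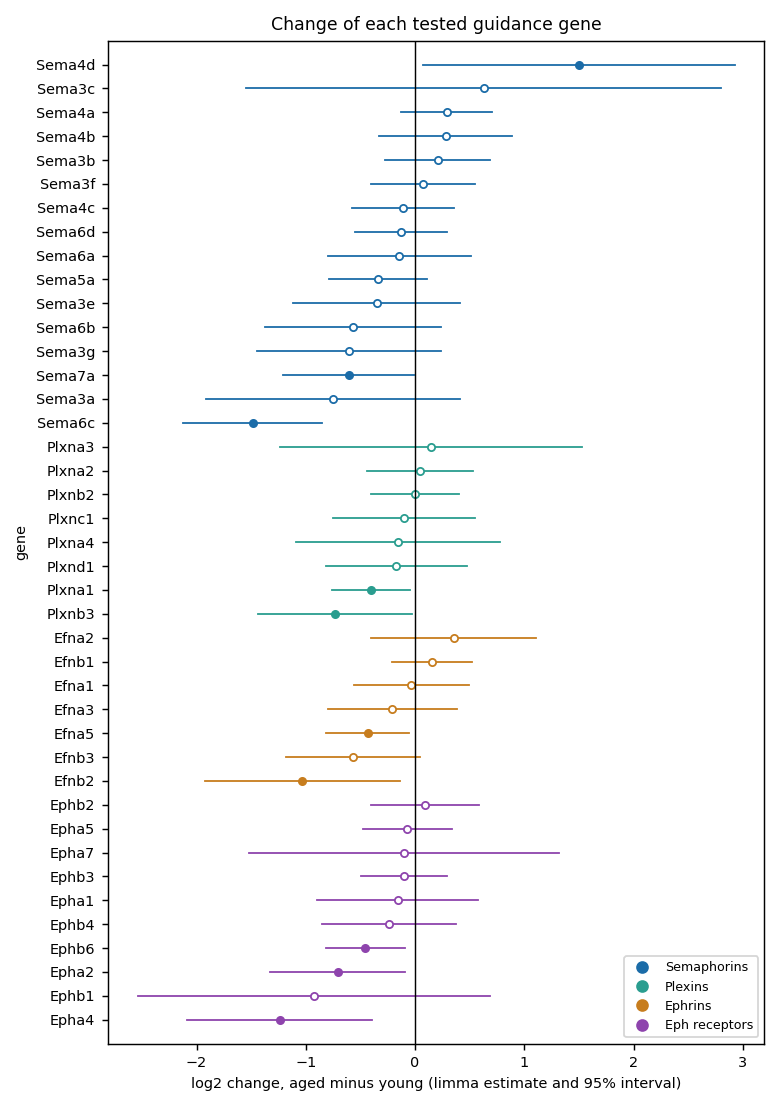
Change of each of the 41 tested guidance genes in aged minus young mice on the log2 scale, as the limma estimate (point) with its 95% interval (line), coloured by family and filled where the unadjusted p is under 0.05. Most points lie left of 0 (30 of 41), and the interval of Sema6c is the farthest from it.

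Of the 8 ephrins, 7 were tested, with a median change of -0.21 (2 higher and 5 lower). Efnb2, the membrane-spanning ephrin of arterial endothelium and of other cells, was -0.44, 0.18 and -0.21 in young mice and -0.36, -1.69 and -1.51 in aged mice. Aged mouse 1 lay among the young mice, while aged mice 2 and 3 were well below them. The change was -1.03 ± 0.38 (SE; limma adjusted p = 0.299), and it was -0.21 with the slide row as a block and -0.64 with normexp background correction. Of 8 endothelial markers, 5 were lower and 1 had a p under 0.05, and their summed level was 36.5 to 42.9 times the 75th percentile in young and 25.5 to 37.3 times in aged mice. The part of the endothelium in the Efnb2 difference was not tested.

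Efna5, a lipid-anchored ephrin known to repel motor axons of the wrong position from muscle, was -2.08, -2.06 and -1.80 in young mice and -2.34, -2.50 and -2.39 in aged mice. The groups did not overlap and both were narrow. The change was -0.43 ± 0.16 (SE; limma adjusted p = 0.301), and it was -0.36 with the slide row as a block. Its unadjusted limma p was under 0.05 in 9 of the 17 alternative settings. Efna3, another lipid-anchored ephrin, known to mark slow muscle fibres, was 0.32, 0.64 and 0.83 in young mice and 0.21, 0.83 and 0.13 in aged mice. These values overlapped, and the change was -0.21 (interval from -0.79 to 0.38). Efna1 and Efnb1, with strong signals on all arrays, had changes of -0.03 (interval from -0.56 to 0.50) and 0.16 (interval from -0.21 to 0.53).

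Of the 14 Eph receptors, 10 were tested, with a median change of -0.20 (1 higher and 9 lower). All 5 EphA receptors tested were lower (median -0.16), and of the 5 EphB receptors 4 were lower (median -0.24). Epha4, a receptor that binds ephrins of both classes and is known at the nerve-muscle contact, was -2.73, -3.13 and -2.21 in young mice and -4.55, -3.86 and -3.38 in aged mice. All aged mice were below all young mice, but the probe was dim, being above background in 3 young mice and in 1 aged mouse. It thus passed the filter through the young group, where it was high, and it is 1 of the 9 lower genes and 1 of the 7 without overlap counted above. With probes above background on all 6 arrays, which leaves Epha4 untested, 8 of 33 members were lower at an unadjusted p under 0.05. The share of all genes at that p was not counted under that filter. The change was -1.24 ± 0.36 (SE; limma adjusted p = 0.222), and it was -0.46 with normexp background correction.

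Epha2, a receptor of epithelium and of endothelium that binds ephrins A, was -0.16, -0.031 and -0.0045 in young mice and -0.21, -1.09 and -1.02 in aged mice. The groups did not overlap, but aged mouse 1 was close to the young mice and the other aged mice far below. The change was -0.71 ± 0.26 (SE; limma adjusted p = 0.300). It was -0.14 with the slide row as a block and -0.34 with normexp background correction.

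Ephb6, a receptor whose kinase domain has no catalytic activity, was -0.90, -0.87 and -0.77 in young mice and -1.28, -1.19 and -1.44 in aged mice. The groups did not overlap. The change was -0.45 ± 0.15 (SE; limma adjusted p = 0.274), a 0.730-fold level, and it was -0.43 with the slide row as a block. Its unadjusted limma p was under 0.05 in 12 of the 17 alternative settings. Ephb3 and Epha5, receptors of ephrins B and A with strong signals on all arrays, had changes of -0.10 (interval from -0.49 to 0.29) and -0.07 (interval from -0.48 to 0.34). Ephb4, the venous receptor of Efnb2, had a change of -0.24 with overlap, while its other probe was lower in every aged mouse than in every young mouse, with a mean difference of -0.44.

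Among the 11 members not tested, Epha3, Epha6, Epha8, Efna4, Plxnb1, Sema3d, Sema4f, Sema4g and Plxna4os1 were above background on 0 arrays and Epha10 and Sema5b on 1. Epha8, a receptor known on the nerve endings of fast motor neurons, was therefore not measured in either group. A further 8 members were tested although at least 1 array was not above background, which were Sema3a, Sema3e, Plxnc1, Plxna3, Ephb1, Epha4, Epha7 and Efna2. Among the tested members 13 had more than 1 probe, and these did not always read alike. The other probes of Efna3, Efnb2, Epha5, Epha7, Ephb6 and Plxnc1 were above background on 0 arrays, and those of Plxna4 and Sema3a on 1. The 6 genes with 0 include Epha5, Efnb2, Ephb6 and Efna3. For each of these named genes, the probe used here was well above background on all arrays and is matched to the same transcript accession as the dim one. The other Sema6d probe had a change of 0.19, against -0.13 for the probe used.

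The co-receptors and signal carriers of these families, with other guidance cues, made a second list of 59 genes, of which 47 were tested. None of them passed an adjusted limma p of 0.05, and 3 were higher and 7 lower at an unadjusted p under 0.05. Over all genes, 6.07% were higher and 8.36% lower at that p. The median change of the 47 genes was -0.14 (15 higher and 32 lower), and that of all genes was -0.06. The groups overlapped for both neuropilins. Nrp1, the co-receptor of Sema3a, was -1.42, -2.10 and -3.16 in young mice and -1.63, -2.03 and -1.43 in aged mice (change 0.53, interval from -0.50 to 1.56). The change was 0.93 without young mouse 1, with an unadjusted limma p under 0.05, and 0.065 without young mouse 3, and it was 0.27 with normexp background correction. Nrp2, the co-receptor of Sema3f, was 2.32, 2.37 and 2.38 in young mice and 2.33, 2.08 and 2.10 in aged mice (change -0.19, interval from -0.55 to 0.17).

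A pair of small GTPase genes had the smallest p values of this list, on the higher side. Rras, a GTPase on which plexins act, was 3.04, 2.95 and 2.72 in young mice and 3.84, 3.75 and 4.03 in aged mice. Rnd1, a GTPase that binds the inner part of plexins, was 1.13, 1.33 and 1.68 in young mice and 2.36, 2.36 and 2.29 in aged mice. Both genes were higher in every aged mouse than in every young mouse. The change of Rras was 0.97 ± 0.17 (SE; limma adjusted p = 0.103) and that of Rnd1 was 0.96 ± 0.19 (SE; limma adjusted p = 0.127). Ntn3, a netrin, also had a p under 0.05 and was higher, by 0.66 (limma adjusted p = 0.232), but its change was 0.29 with normexp background correction.

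On the lower side, the 3 genes with the smallest p were Tiam1, Robo4 and Dpysl2. Tiam1, an exchange factor that activates Rac, had a change of -1.09 (limma adjusted p = 0.190) and of -0.54 with normexp background correction. Robo4, the endothelial receptor of the roundabout family, was 3.98, 4.10 and 4.05 in young mice and 3.73, 3.20 and 2.58 in aged mice, which did not overlap. Its change was -0.87 (limma adjusted p = 0.268), and it was -0.58 without aged mouse 3 and -0.32 with the slide row as a block. Dpysl2, the collapsin response mediator through which Sema3a acts on the cytoskeleton, had a change of -0.52 (limma adjusted p = 0.296).

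**Figure D4:**
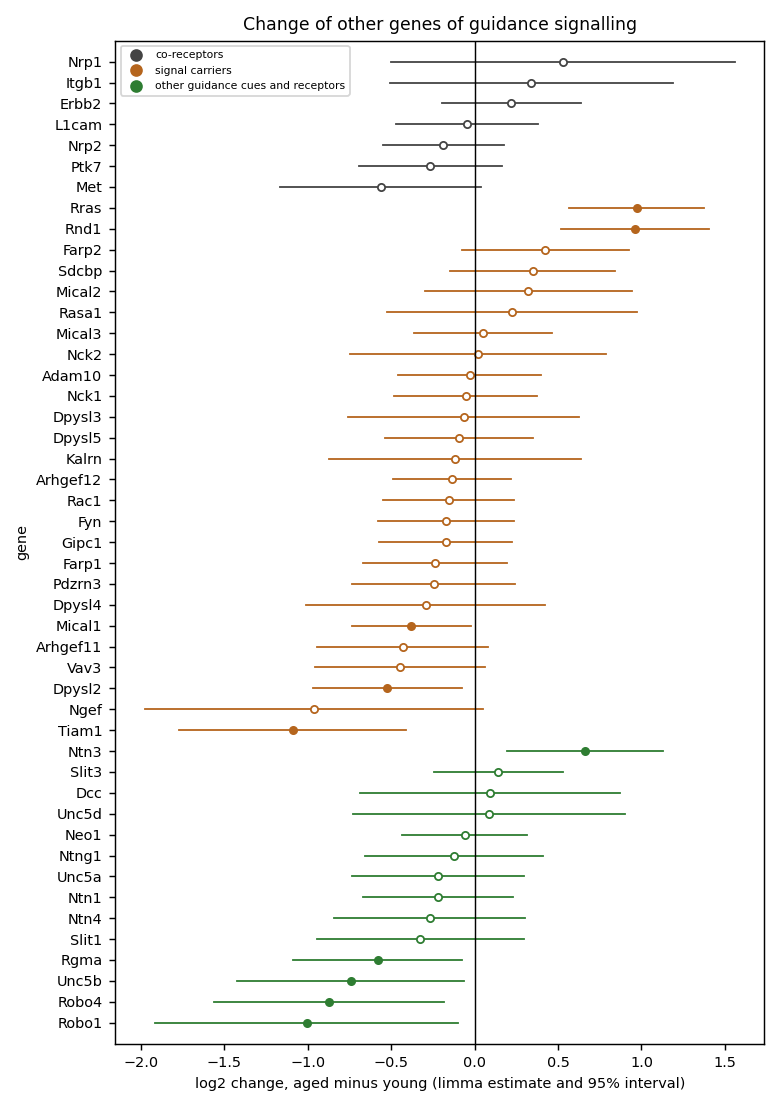
Change of each of the 47 tested genes of guidance signalling outside the 4 families, in aged minus young mice on the log2 scale, as the limma estimate (point) with its 95% interval (line), filled where the unadjusted p is under 0.05. Rras and Rnd1 lie farthest right at about 1, and Tiam1 lies farthest left at -1.09.

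Marker genes of the cells in whole muscle were read on the same arrays. The 8 fibre markers (among them Acta1, Ckm and Myh4), which check the labelled tissue, were well above background on all arrays, with 8 of 8 lower (median change -0.19) and 0 genes with a p under 0.05. Of 10 Schwann cell markers 8 were tested, 6 of them were lower with a p under 0.05 (median change -0.83), and Cdh19 and Erbb3 were not tested. Of 8 smooth muscle and pericyte markers 7 were lower, with a summed level of 75.7 to 80.4 times the 75th percentile in young and 57.2 to 64.5 in aged mice. Of 8 fibroblast markers 7 were lower, with a summed level of 466 to 531 in young and 225 to 357 in aged mice. Of 8 genes known to respond to denervation 7 were higher (median 1.81), with a summed level of 20.6 to 24.3 in young and 46.8 to 127 in aged mice. Chrng, 1 of the 7, was above background in 0 young and 3 aged mice. It thus passed the filter only through the aged group, where it was high, and it counts in that median. Of 7 erythrocyte markers 5 were tested and all 5 were lower, 4 of them with a p under 0.05 (median change -1.03), with a summed level of 635 to 922 in young and 289 to 459 in aged mice. Of 5 satellite cell markers 4 were tested, 2 were higher and 2 lower, with a summed level of 15 to 15.2 in young and 15.2 to 17.5 in aged mice. Of the 2 lower, Calcr had an unadjusted limma p under 0.05 (change -1.19). It was above background in 3 young mice and 1 aged mouse, so it passed the filter through the young group. Summed levels follow the brightest genes of a list most, such as Dcn for fibroblasts. For satellite cells this was Cdh15 (mean log2 signal 3.80 in young mice, against -2.24 for Pax7). The part of these cells in the changes of the guidance genes was not tested.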

How the data were processed

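Gene expression was measured on 6 single-colour arrays, 3 of young and 3 of aged mice. Of the scanner output that the authors deposited, the processed signal was used, a linear intensity that the software had cleared of background and of trends across the slide, with no scaling between arrays. The submitters' processing notes name Feature Extraction 9.5 and the file headers 11.0.1.1. Normalization and test of the arrays are not given in the sources used here. The deposited series matrix held the same values (largest log2 difference 0).

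Of 62976 spots, 59305 were not controls. Flagged spots were left out, log2 signals were averaged per probe, and the 75th percentile of each array over probes was subtracted. A probe was kept if 3 or more arrays read it well above background, and the kept probe with the highest mean stood for a gene. This left out 12 probes whose spots were all flagged on an array, and 0 probes were saturated. Symbols came from RefSeq accessions (GRCm38.p6), which named 28331 of 55681 probes. The share of probes above background and the number of arrays limit the precision.

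The age groups were tested using lmFit and eBayes of limma 3.58.1 (R 4.3.3, Benjamini-Hochberg over 20900 genes, threshold 0.05), and the fit was tested on simulated data. Named with values were members with an unadjusted p under 0.05 or no overlap, the 2 members of each family with the highest mean signal, genes known at the nerve-muscle contact (Sema3a, Efna3, Epha4, Epha8, Nrp1 and Nrp2), and the 3 other pathway genes with the smallest p on each side; Sema3c, Ephb4 and Sema5a were added after their values were seen. The members and lists were chosen with earlier results of these data known. Alternatives were normexp (offset 50) on the median spot signal, scaling by quantiles, by the median or by the 75th percentile of detected probes only, a filter at 0 or at 6 arrays, averaged probes per gene, the series matrix, a mean-variance trend, a block for slide row or for replicate number, and omission of single mice.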

Additional observations from a re-analysis of the deposited data

How the results depend on the processing

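No member and no other pathway gene passed an adjusted limma p of 0.05 under any of the 17 alternatives, while over all genes the number past it was 53, and 42 with quantile normalization or median scaling, 63 with the 75th percentile over probes above background, 73 with the mean-variance trend, 35 with probes above background on all 6 arrays, 8 without the filter on dim probes, 5 with the replicate block and 1 to 199 without each mouse. Median scaling moved the median of all genes to -0.21, that of the members to -0.30 and that of the Eph receptors to -0.35. Without each mouse, the Eph receptor median ranged from -0.41 to -0.11. Members higher at a p under 0.05 numbered 0 with quantile normalization, median scaling and no filter on dim probes, and 0 to 2 without each mouse. Members lower ranged from 2 to 11, being 4, 2 and 5 without young mice 1, 2 and 3 and 11, 4 and 3 without aged mice 1, 2 and 3. Other pathway genes lower, 7 in the report, numbered 2 with the replicate block and 2 to 8 without each mouse. The share of all genes at an unadjusted p under 0.05 was not counted for the alternatives. Their counts of members and pathway genes therefore cannot be set against all genes. Plxnb2 turned to 0.021 with quantile normalization, 0.030 with the 75th percentile over probes above background and 0.21 with the slide row, and Efna1 to 0.00086 with that percentile. Without each mouse, Plxnb2 ranged from -0.11 to 0.069, Efna1 from -0.14 to 0.15, Plxnd1 from -0.33 to 0.050, Epha5 from -0.16 to 0.013 and Sema4c from -0.22 to 0.047. The cause of these differences was not tested. Sema6c was lower in 17 of 17 alternatives, from -1.64 to -1.22, with an unadjusted p under 0.05 in all 17 and an adjusted p from 0.0657 to 0.309. With the replicate number as a block, 8 members had a p under 0.05, 7 of them among the 10. The labels do not say that a replicate number pairs mice, so the numbers were not taken as pairs. Deviations of mice with the same number correlated at -0.06, -0.27 and 0.03. With 3 mice per group, such correlations cannot decide on pairing.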
